A study of Mus musculus with 154 samples.

Results

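Replication-dependent histone genes were taken as every gene in the count table whose GENCODE vM21 symbol starts with Hist1h, Hist2h, Hist3h or Hist4h. The annotation holds 70 such genes, and 26 of them were among the 13289 genes of the table. The 26 genes comprised 5 of 6 linker histone H1 genes, 2 of 20 H2A genes, 6 of 19 H2B genes, 3 of 12 H3 genes and 10 of 13 H4 genes. By locus, 19 lay in the Hist1 cluster on chromosome 13, 5 in the Hist2 cluster on chromosome 3, 1 (Hist3h2a) on chromosome 11 and 1 (Hist4h4) on chromosome 6. The rule uses only the symbol, so no measured value chose the members.

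Liver RNA of male mice from 24 strains was sequenced, with every mouse taken at 5 weeks of age after an overnight fast. The strains were C57BL/6J (B6, 20 mice), 8 strains with one A/J copy of a single chromosome on a B6 background (63 mice, 7 or 8 per strain), and 15 strains that inherited an A/J chromosome from each parent (71 mice, 3 to 6 per strain), referred to as single and double chromosome substitution strains (CSSs). Chromosomes 3, 6, 14 and 17 came from the dam and chromosomes 4, 5, 8 and 10 from the sire, so that (B6.A14 x B6.A8)F1 carries one A/J copy of chromosomes 14 and 8, and every effect reported is that of one A/J copy of a whole chromosome. The strains differ in the crosses that produced them as well as in their chromosomes, and these cannot be told apart. In what follows, A8 stands for the main effect of the A/J-derived chromosome 8, which is the difference between the single CSS and B6, and A14:A8 for the interaction, which is how far the double CSS lies from the main effects added together.

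Histones are the proteins around which nuclear DNA is wound. H2A, H2B, H3 and H4 form the nucleosome core, and the linker histone H1 binds the DNA between nucleosomes. The genes studied here encode the bulk of these proteins, are clustered in the genome, lack introns in their coding part and are transcribed mainly during S phase. Their mRNAs typically end in a conserved stem-loop instead of a poly(A) tail, the stem-loop binding protein SLBP holds that structure, and the mRNAs are degraded when DNA synthesis stops. Replacement histones such as H2A.Z (H2afz) and H3.3 (H3f3a and H3f3b) are made throughout the cell cycle from polyadenylated mRNAs. In liver most hepatocytes are outside the cell cycle, and most genes of the class have low mRNA levels in such cells, while some, such as the linker histone H1.2 gene Hist1h1c, are known to be transcribed in resting cells as well. The libraries were made from total RNA without poly(A) selection, which keeps mRNAs of both kinds.

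The stem-loop is shown first because it defines the class. An exact hairpin made of 6 paired bases starting with GG, a loop of 4 bases and the reverse complement of the stem was found after the coding sequence in 19 of the 26 annotated transcripts, in 6 distinct forms, with 24 to 57 bases between the last sense codon and the hairpin. In the lines that follow the hairpin is in capitals, with up to 5 flanking bases on each side, on GRCm38 and on the strand of the gene.
Hist1h1c (chr13:23739507-23739532, plus strand): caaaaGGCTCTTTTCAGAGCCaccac
Hist1h1e (chr13:23621777-23621802, minus strand): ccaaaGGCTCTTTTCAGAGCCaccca
Hist1h3e (chr13:23561898-23561923, minus strand): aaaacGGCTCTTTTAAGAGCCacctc
Hist1h4b (chr13:23757361-23757386, plus strand): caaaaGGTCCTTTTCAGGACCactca
Hist1h4c (chr13:23698084-23698109, minus strand): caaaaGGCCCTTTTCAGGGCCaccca
Hist1h4i (chr13:22040961-22040986, minus strand): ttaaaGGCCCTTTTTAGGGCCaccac
Hist2h2ac (chr3:96220413-96220438, minus strand): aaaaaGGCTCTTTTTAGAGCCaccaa
Hist4h4 (chr6:136803993-136804018, minus strand): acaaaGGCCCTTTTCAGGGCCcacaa
The linker genes Hist1h1c, Hist1h1d and Hist1h1e shared 1 hairpin form with Hist1h2be, Hist1h2bg and Hist3h2a, and the form printed for Hist1h4c and Hist4h4 was carried by 5 H4 genes. Over the whole annotation, 45 of 22527 genes with a coding transcript (0.200%) held one of these 6 forms after the coding sequence, and 44 of the 45 had a symbol of the class. No such hairpin was found in the annotated transcripts of Hist1h1a, Hist1h1b, Hist1h2bc, Hist1h4k, Hist2h2bb, Hist2h2be or Hist2h3b. For Hist1h1b, Hist1h4k and Hist2h2bb the annotated transcript stops 3 bases after the last sense codon, so the region that would hold the hairpin is not annotated. Several transcripts run on past the hairpin, by 840 bases in Hist1h1c, 2445 in Hist4h4 and 4884 in Hist1h1d, and reads in those stretches are counted to the gene.

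Promoter elements known from the H4 and H1 genes are shown because these families hold 15 of the 26 genes. RefSeq promoter windows (GRCm38.p6) of 300 bases, lying mostly before the annotated start, were matched to 22 of the 26 genes. The H4 element GGTCCG, part of the site that the H4 transcription factor HINFP is known to bind, was searched on both strands (reverse complement CGGACC) and was present in 9 of the 9 H4 promoters matched, against 0 of 5 H1 promoters and 8.25% of all 32851 promoters. The element AAACACA, known as the H1 box, was searched likewise (reverse complement TGTGTTT) and was present in 4 of 5 H1 promoters, against 0 of 9 H4 promoters and 7.18% of all promoters. Both elements were chosen after the promoter sequences had been seen, and a match is a description of letters and not a binding site. The element is in capitals in the windows of 30 bases that follow.
Hist1h4c (chr13:23698487-23698516, minus strand): agttttcaaccaGGTCCGcagaaggcctat
Hist1h4d (chr13:23581509-23581538, plus strand): ggttttcaaacaGGTCCGcattggtattat
Hist1h4h (chr13:23531027-23531056, plus strand): agtcttcaatcaGGTCCGaaaacactgcat
Hist1h4i (chr13:22041391-22041420, minus strand): tgttttcactccGGTCCGcaagttccctat
Hist4h4 (chr6:136804446-136804475, minus strand): tgttttcaatcaGGTCCGctcccaggaaat
Hist1h1c (chr13:23738684-23738713, plus strand): tgaagtgtaacAAACACAagttgggcgcag
Hist1h1d (chr13:23554899-23554928, plus strand): tgaggggcaacAAACACAgccacaaggcaa
Hist1h1e (chr13:23622655-23622684, minus strand): tgaggtgtaacAAACACAactccgcatctg
The general promoter elements CCAAT (reverse complement ATTGG) and TATAAA (reverse complement TTTATA) were present in 68.2% and 54.5% of the 22 promoters, against 37.4% and 13.6% of all promoters, and both were present together in 36.4% against 5.31%.

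The 26 genes together took 0.0149% to 0.0706% of the counts of a mouse (median 0.0276%), and the total counts ranged from 4638701 to 30465477 per mouse (median 16116424). The H1 genes held 47.3% of the CPM (counts scaled to the size of the library) summed over the 26 genes, the H4 genes 24.6%, the H2B genes 23.4%, the H3 genes 2.72% and the H2A genes 1.99%. Since longer genes collect more reads, genes were compared in CPM per kilobase of annotated exon. The highest levels on that scale were those of Hist1h2bc (51.5), an H2B gene, Hist1h1c (49.3), encoding linker histone H1.2, Hist1h4h (40.9), Hist1h1e (24.7), encoding linker histone H1.4, Hist1h4c (20.002) and Hist1h4d (17.5). The other 20 genes had at most 8.67 CPM per kilobase, the value of Hist2h2ac. This scale depends on the annotated length, which in some genes lies mostly past the hairpin. Hist1h1d had a mean of 8.63 CPM but 1.16 CPM per kilobase, over 7425 annotated bases of which 4884 lie past the hairpin.

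Levels of the leading genes overlapped widely between mice. Hist1h1c ranged from 24.8 to 320 CPM with a median of 69.2 over all mice, and Hist1h1e from 17.5 to 197 with a median of 41.9. Hist1h2bc varied least among the leading genes, from 41.0 to 98.9 CPM with a median of 58.4. Its standard deviation within strains was 0.19 on the log2 CPM scale, against 0.51 for Hist1h1c and 0.50 for Hist1h1e. The 3 leading H4 genes lay between these, at 0.34 for Hist1h4d, 0.37 for Hist1h4c and 0.40 for Hist1h4h.

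**Figure D1:**
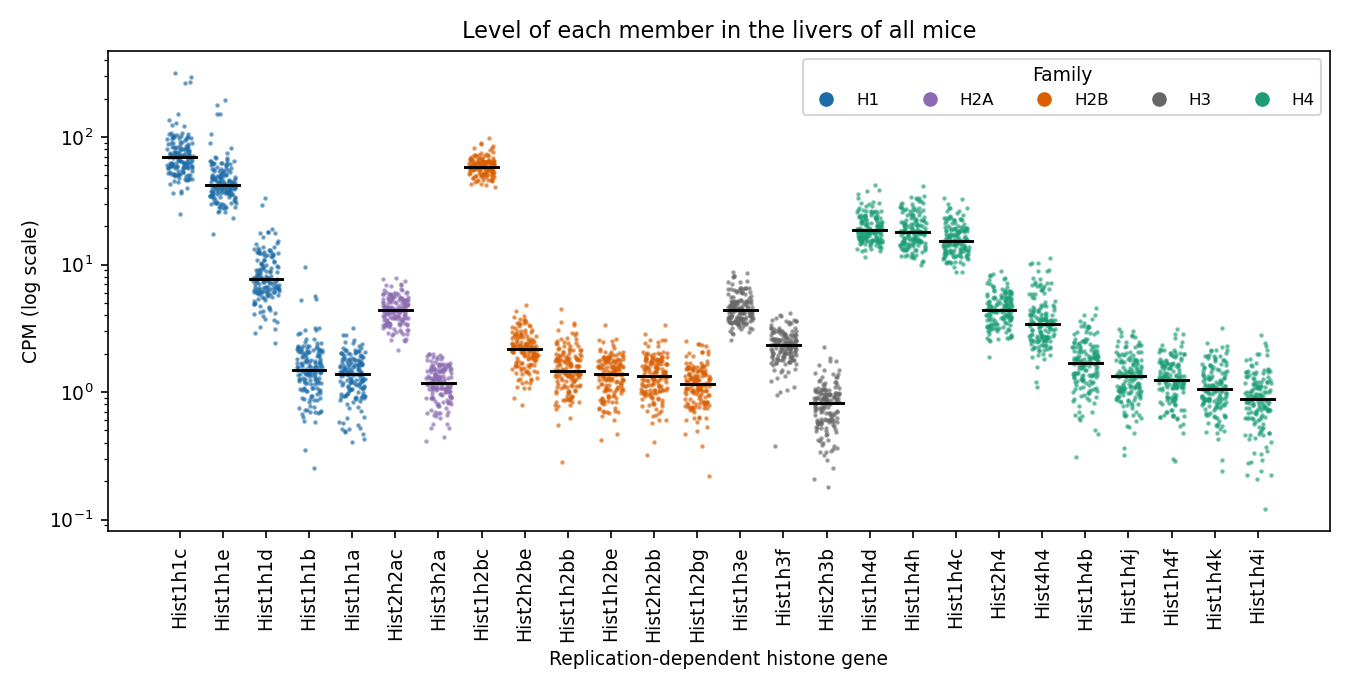
Levels of the 26 replication-dependent histone genes in CPM (log axis) over all mice. Each point is a mouse, the black bar is the median, and genes are grouped and coloured by family. Hist1h1c, Hist1h2bc and Hist1h1e have medians of 69.2, 58.4 and 41.9 CPM, and most other members lie below 10 CPM.

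The members outside the Hist1 cluster were measured at low levels. In the Hist2 cluster, Hist2h4 (H4) had a median of 4.44 CPM (1.90 to 8.85), Hist2h2ac (H2A) 4.38 CPM (2.16 to 7.80), Hist2h2be (H2B) 2.18 CPM (0.791 to 4.79), Hist2h2bb (H2B) 1.33 CPM (0.320 to 3.37) and Hist2h3b (H3) 0.825 CPM (0.180 to 2.25). Hist3h2a (H2A) had a median of 1.18 CPM (0.413 to 2.002). At these depths 13 of the 26 genes averaged 1 or more on the log2 CPM scale, 19 had at least 15 counts in 75% of mice and 10 had at least 15 counts in every mouse. The reads were 50 bases long and the coding sequences within a family are nearly identical, so the share of 50-base stretches found in no other annotated gene was computed for each gene. It was 0% for Hist2h2bb and Hist2h3b, whose counts therefore cannot be assigned to those genes with certainty, and under 50% for 6 of the 26 genes, while it was 91.5% for both Hist1h1c and Hist4h4, 69.4% for Hist1h2bc, 80.4% for Hist1h4c, 89.8% for Hist1h4d and 54.2% for Hist1h4h. Matches on either strand were counted. Hist2h2bb shares its stretches with no other histone gene, and it overlaps the annotated genes Gm20628 (opposite strand) and Gm42743 (same strand). Hist1h1e and Hist1h2be overlap on the same strand in the annotation, so reads in the shared stretch cannot be given to one of them.

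In bulk liver, fewer cells of a type and less RNA per cell cannot be told apart. The hepatocyte markers (6 of 6 measured) summed to between 49516 and 152274 CPM per mouse, Kupffer cell markers (8 of 8) to between 238 and 626 CPM, endothelial markers (6 of 6) to between 255 and 371 CPM, lymphocyte markers (7 of 11) to between 15.4 and 61.8 CPM and neutrophil markers (2 of 6) to between 0.124 and 14.3 CPM.

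Hist4h4, an H4 gene that stands alone at chr6:136801553-136804415 (minus strand), was higher in every strain that carried the A/J-derived chromosome 6 on which it lies. In B6 mice its level was 1.20, 2.95 and 6.53 CPM (lowest, median and highest of 20 mice). In (B6.A6 x B6)F1 the 8 mice had 5.51 to 10.3 CPM with a median of 6.92. The 4 double CSSs with A6 were at the same height, with values of 5.86, 6.02, 6.27, 6.76 and 6.77 CPM in (B6.A6 x B6.A4)F1 and of 5.85, 7.34, 9.10 and 10.3 CPM in (B6.A6 x B6.A5)F1. In (B6.A6 x B6.A10)F1 the values were 6.48, 7.06, 7.83, 8.84 and 11.2 CPM, and in the 6 mice of (B6.A6 x B6.A8)F1 they ran from 5.18 to 8.85 CPM. The 28 carriers of A6 had a mean of 7.37 CPM ± 1.63 (SD), and the 126 other mice had a mean of 3.20 CPM ± 0.884 (SD). The carriers and the other mice did not overlap except for 1 B6 mouse, at 6.53 CPM, that lay above the lowest carrier.

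The A6 main effect on Hist4h4 was a log2 fold change of 1.28 ± 0.14 (SE, n = 8 mice against 20 B6 mice, edgeR quasi-likelihood test, adjusted p = 6.13e-13), and 8.09% of all genes passed the test for A6. It passed in 13 of the 13 settings in which it was tested, with log2 fold changes of 1.09 to 1.29. No interaction of Hist4h4 passed the test, and the double CSSs differed from B6 by log2 fold changes of 1.14 with A4, 1.46 with A5, 1.32 with A8 and 1.37 with A10. Measured neighbours on one side of Hist4h4 moved less. H2afj, a replacement H2A gene that starts within 4 kilobases of Hist4h4, had a log2 fold change of 0.13 ± 0.07 (SE, adjusted p = 0.182 by edgeR), Wbp11 one of -0.11 ± 0.07 (SE, adjusted p = 0.294 by edgeR), Art4 fell by 0.39 and Arhgdib fell by 0.25 on the log2 scale (adjusted p = 0.00894 and 0.0309 by edgeR). These neighbours were chosen for their position, all at higher coordinates than Hist4h4, and genes on its other side were not looked at.

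**Figure D2:**
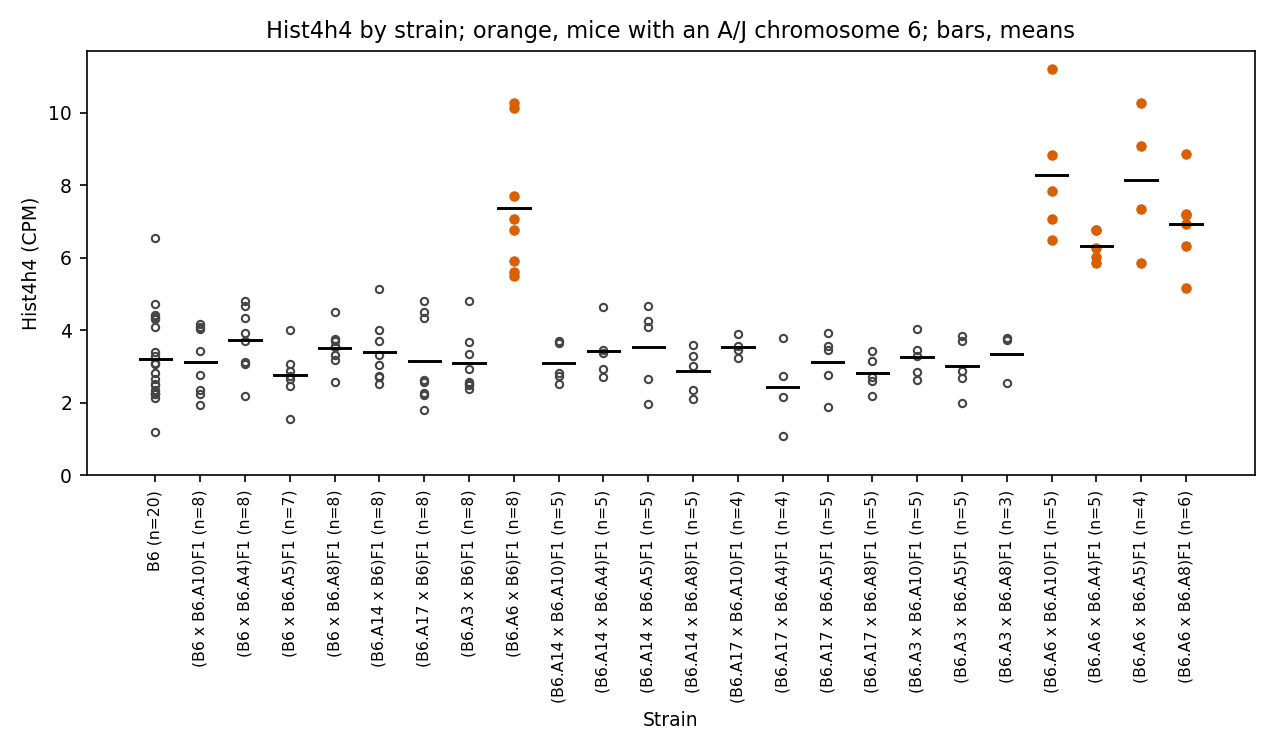
Hist4h4 level in CPM for every mouse, by strain (linear axis from 0, bars are strain means), with mice that carry the A/J-derived chromosome 6 in orange. The 28 carriers lie between 5.18 and 11.2 CPM and the 126 other mice between 1.09 and 6.53 CPM.

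To ask which chromosome substitutions changed the class as a whole, the 8 main effects were tested for all 26 genes. Of the 208 tests 32 passed (15.4%, against 11.1% over all genes), and all 32 were higher than in B6, where 5.32% of the tests over all genes were higher and 5.74% lower. The calls fell on 14 genes. A8 had 13 (29.6% of all genes passed for A8, 12.9% in the higher direction), A14 had 9 (22.5% and 9.98%), A4 had 5 (13.5% and 7.6%), A6 had 3 (8.09% and 4.3%) and A17 had 2 (3.67% and 1.71%). A3, A5 and A10 had 0, where 3.7%, 0.768% and 6.64% of all genes passed. The members varied together between mice of one strain (median Pearson r of 0.31 over their pairs, given further on). Counts of members are therefore not counts of independent observations. In A8, 25 of the 26 log2 fold changes were positive with a median of 0.44, against a median of -0.01 over all genes. For A14, A4 and A10 the medians were 0.25, 0.24 and 0.25, with 22, 24 and 22 of the 26 positive. For A5, A6, A3 and A17 they were 0.15, 0.14, 0.11 and 0.07, with 20, 19, 17 and 17 positive. The median was thus above 0 in all 8 main effects, which are all set against the same 20 B6 mice. The part of that shared reference was not tested.

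These counts depended on the model and on a few mice. With 10 surrogate variables in place of 5, 2 of the 208 tests passed (4.25% over all genes), and with 0 surrogate variables 22 passed (13.4% over all genes). Without the 4 mice with the highest Hist1h1c, described further on, 7 passed (6.32% over all genes), and with the mean log2 CPM of short structured RNAs as a covariate 14 passed (7.63% over all genes). The calls that passed in every setting in which they were tested were Hist4h4 for A6 and Hist1h4i for A8. Hist1h2bc for A4 passed in 13 of 14 settings. Of 37 short structured RNA genes, 28 were called higher for A8 (median log2 fold change 0.90), 28 for A4 (0.95), 22 for A14 (0.69), 9 for A10 (0.72), 6 for A6 (0.37) and 0 for A3, A5 and A17, and 0 were called lower in any. Their summed level was 4843, 7547 and 12057 CPM in B6 (lowest, median and highest), 6841, 11065 and 13890 CPM with A8, 6872, 9968 and 13864 CPM with A14 and 6851, 9374 and 11506 CPM with A4. The summed hepatocyte markers had medians of 110693 CPM in B6, 72469 CPM with A8 and 82733 CPM with A14. The part of either in the histone counts was not tested.

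**Figure D3:**
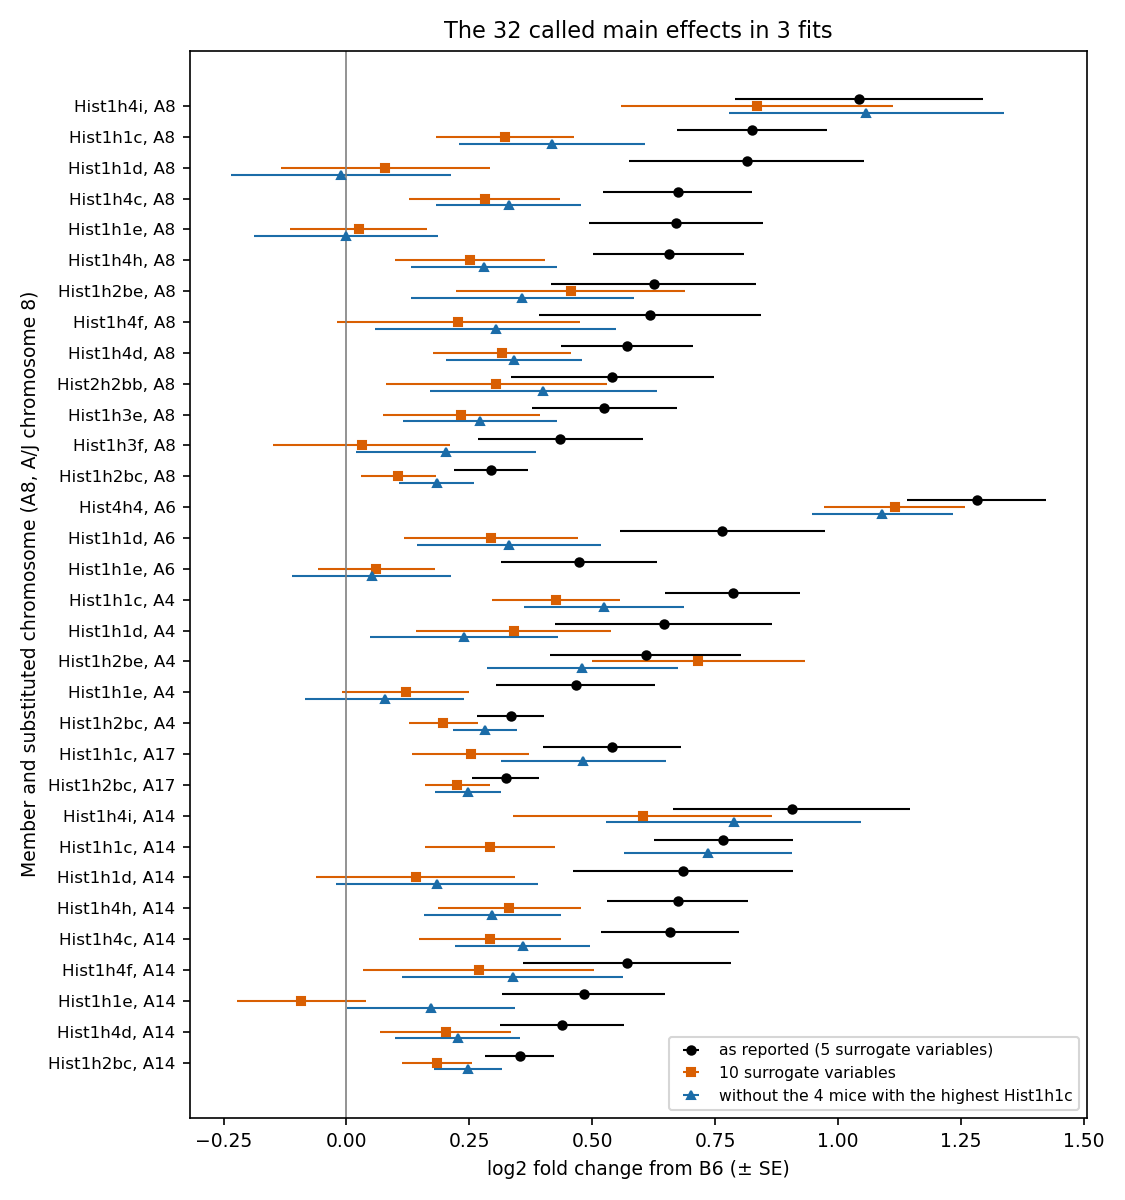
Log2 fold change from B6 (points) with its SE (bars) for the 32 main effects that passed, in the fit with 5 surrogate variables, in that with 10 and in that without the 4 mice with the highest Hist1h1c. Most points move towards 0 in the other fits, while Hist4h4 for A6 stays at 1.09 or above and Hist1h4i for A8 at 0.84 or above.

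Among H4 genes, Hist1h4i had the highest fold change for A8. Its level was 0.120, 0.751 and 1.61 CPM in B6 (lowest, median and highest of 20 mice) and 0.726, 1.73 and 2.79 CPM in (B6 x B6.A8)F1 (8 mice). The strains overlapped, with 4 of the 8 mice above the highest B6 mouse. The log2 fold change was 1.04 ± 0.25 (SE, adjusted p = 0.000653 by edgeR), with a range of 0.84 to 1.26 over the settings in which it was tested. This gene had a median of 13.5 counts per mouse, so each value carries a large counting error. In (B6.A14 x B6)F1 its level was 0.837, 1.27 and 2.15 CPM, and the log2 fold change was 0.91 ± 0.24 (SE, adjusted p = 0.00296 by edgeR).

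The more abundant H4 genes rose with the same chromosomes. Hist1h4c, Hist1h4h and Hist1h4d rose in A8, with log2 fold changes of 0.67, 0.66 and 0.57, and in A14, with log2 fold changes of 0.67 for Hist1h4h, 0.66 for Hist1h4c and 0.44 for Hist1h4d. The level of Hist1h4c was 10.2, 12.9 and 25.3 CPM in B6 (lowest, median, highest). With A8 it was 15.03, 21.6 and 32.9 CPM, and with A14 it was 12.4, 20.6 and 33.6 CPM. The ranges overlapped, although the medians of both single CSSs lay nearer to the highest B6 mouse than to the B6 median. All 6 of these calls also passed with 0 surrogate variables and none passed with 10 (0.20 to 0.33 on the log2 scale) or without the 4 mice with the highest Hist1h1c.

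The linker histone genes differed less between strains in their measured levels than in the fitted effects. For A8, Hist1h1c rose by a log2 fold change of 0.82 ± 0.15 (SE, adjusted p = 9.38e-06 by edgeR), while the 8 single CSS mice had a mean of 75.2 CPM ± 15.4 (SD) and a median of 77.9 CPM, against 67.4 CPM ± 56.5 (SD) and 57.3 CPM in the 20 B6 mice. With 0 surrogate variables this log2 fold change was 0.16 (adjusted p = 0.593 by edgeR), and without the 4 mice it was 0.42 (adjusted p = 0.135). Hist1h1e rose by 0.67 in the fit, although the mean was 42.6 CPM in the single CSS against 43.6 CPM in B6, and its log2 fold change was -0.03 with 0 surrogate variables. Hist1h1d, encoding linker histone H1.3, rose by 0.81 ± 0.24 (SE, adjusted p = 0.00519 by edgeR) at 5.38, 9.62 and 13.03 CPM against 2.43, 6.62 and 18.1 CPM in B6, and its log2 fold change was -0.01 without the 4 mice.

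Linker genes were also called for other chromosomes. For A14, Hist1h1c rose by 0.77 ± 0.14 (SE, adjusted p = 1.76e-05 by edgeR) at 62.5, 91.8 and 135 CPM, and it also passed without the 4 mice (0.74) but not with 0 surrogate variables (0.49, adjusted p = 0.0924). Hist1h1d rose by 0.69 ± 0.22 in A14 (SE, adjusted p = 0.0170 by edgeR). For A4, Hist1h1c rose by 0.79 ± 0.14 (SE, adjusted p = 3.50e-05 by edgeR), Hist1h1d by 0.65 and Hist1h2be, a low H2B gene, by 0.61. For A6, Hist1h1d rose by 0.77 ± 0.21 (SE, adjusted p = 0.0128 by edgeR) and Hist1h1e by 0.47 ± 0.16 (SE, adjusted p = 0.0458 by edgeR), the latter with a log2 fold change of 0.02 with 0 surrogate variables. The 5 surrogate variables carried 59.0% of the variance within strains of Hist1h1c and 44.6% of that of Hist1h1e, against 11.2% for Hist4h4 and a median of 21.4% over all genes.

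Hist1h2bc, the H2B gene with the highest level per length, changed by small amounts. It rose in A14 (0.35), A4 (0.33), A17 (0.32) and A8 (0.29), with standard errors of 0.07 to 0.08. In B6 it was 42.1, 53.5 and 72.0 CPM (lowest, median, highest), with A4 50.6, 61.3 and 85.9 CPM, with A14 55.9, 63.1 and 72.5 CPM and with A17 52.7, 72.6 and 98.9 CPM. All 4 calls also passed with 0 surrogate variables, and none passed with 10. The ranges overlapped in each strain.

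The 5 Hist2h genes lie on chromosome 3, and none of them passed the test for A3. In that cluster 1 main effect passed, that of Hist2h2bb for A8 (0.54, adjusted p = 0.0356 by edgeR), a gene whose reads are not unique. Hist3h2a passed no test. Chromosome 13, which carries the Hist1 cluster, was not substituted in any strain, so every effect on a Hist1 gene was that of another chromosome.

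The interactions were tested for the same 26 genes in 15 crosses. Of the 390 tests 20 passed (5.13%, against 5.96% over all genes), and all 20 were lower than the sum of the main effects, where 3.35% of the tests over all genes were higher and 2.61% lower. A14:A8 had 8 (32.4% of all genes passed, 14.3% in the lower direction), A6:A8 had 5 (24.8% and 11.4%), A14:A10 had 2 (4.16% and 1.72%), A17:A8 had 2 (8.68% and 3.73%), and A14:A4 (4.63% and 2.05%), A14:A5 (4.04% and 1.55%) and A17:A4 (1.21% and 0.61%) had 1 each. The other 8 crosses had 0 members called, and of all genes 0.542% passed in A6:A4, 0.0527% in A6:A10, 0.113% in A17:A10, 7.56% in A3:A8, 1.17% in A3:A10 and 0% in A3:A5, A6:A5 and A17:A5. In each of the 20 both main effects were above 0, the double CSS lay below the higher of its single CSSs, and in none did it lie below B6. The interaction is computed from the same single CSSs and B6 mice as the main effects, so a high main effect lowers it. The count was 0 with 10 surrogate variables (1.23% over all genes), 24 with 0 surrogate variables (8.88% over all genes, 8 of the 24 among the 20), 4 without the 4 mice with the highest Hist1h1c (2.33% over all genes, 3 of the 4 among the 20) and 9 with the short structured RNA covariate (3.93% over all genes).

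In (B6.A14 x B6.A8)F1, 3 linker genes, 4 H4 genes and Hist1h2bc were lower than both main effects together would give. Hist1h1c had 47.4, 50.5, 62.7, 77.0 and 96.4 CPM in the 5 mice, within the B6 range and below the median of (B6.A14 x B6)F1 in 4 of them. Its interaction was -1.33 ± 0.25 (SE, adjusted p = 7.95e-06 by edgeR), from main effects of 0.77 and 0.82 and a double CSS 0.26 above B6. Hist1h4c had 11.6, 11.6, 13.6, 16.9 and 19.3 CPM, within the B6 range, and its interaction was -1.17 ± 0.25 (SE, adjusted p = 8.35e-05 by edgeR). Hist1h2bc had 45.3, 46.0, 49.8, 52.9 and 61.3 CPM and an interaction of -0.62 ± 0.12 (SE, adjusted p = 1.97e-05 by edgeR), which passed in 13 of 14 settings, the exception being 10 surrogate variables. Hist1h4i had 0.619 to 1.51 CPM and an interaction of -1.56 ± 0.42 (SE, adjusted p = 0.00176 by edgeR). Leaving out each of the 5 mice of this cross in turn gave 8 or 9 members called.

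In (B6.A6 x B6.A8)F1 the largest interactions were those of the linker genes, at -1.07 ± 0.36 for Hist1h1d, -0.77 ± 0.27 for Hist1h1e and -0.65 ± 0.24 for Hist1h1c (SE, adjusted p = 0.0205, 0.0289 and 0.0312 by edgeR). None of these 3 passed with 0 or 10 surrogate variables or without the 4 mice. For A17:A8 and A14:A10 the calls were those of Hist1h1c, at -0.90 ± 0.25 and -0.998 ± 0.25, and of Hist1h2bc, at -0.45 ± 0.12 and -0.50 ± 0.12 (SE, adjusted p = 0.0129, 0.0133, 0.00982 and 0.0128 by edgeR). The Hist1h2bc values were 50.5, 53.8, 57.2, 57.3 and 59.3 CPM in (B6.A14 x B6.A10)F1, all inside the B6 range. The call for Hist1h1c in A17:A4 was lost whichever of its 4 mice was left out, and that of Hist1h2bc in A14:A4 was lost for 3 of its 5 mice (replicates 3, 4 and 5). The call for Hist1h4c in A14:A5 was lost without replicate 1 (adjusted p = 0.0783 by edgeR) or replicate 2 (adjusted p = 0.106) of that cross, and the call for Hist1h1c in A17:A8 without its replicate 3 (adjusted p = 0.0535).

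Over all 24 strains together, 9 of the 26 genes differed between strains in the joint test of the 23 strain coefficients, while 51.4% of all genes did. They were Hist4h4 (adjusted p = 2.49e-22 by edgeR), Hist1h1c, Hist1h2bc, Hist2h2be, Hist1h4c, Hist1h4h, Hist1h4d, Hist1h1e and Hist1h1d. All 9 were among the 13 members that averaged 1 or more on the log2 CPM scale, whose main effects had a median SE of 0.15 against 0.21 for the other 13, and 11 members passed no test of any kind. Without the 4 mice 4 members passed the joint test (42.2% over all genes), and with 10 surrogate variables 3 passed (37.3% over all genes). Hist2h2be passed here without a called main effect or interaction, with strain means on the log2 CPM scale that spanned 0.93 between (B6.A17 x B6.A5)F1 and (B6 x B6.A10)F1.

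The genes also varied together between mice of one strain. With the strain means removed, the median Pearson r over the 78 pairs of these 13 members was 0.40, over the 325 pairs of all 26 members 0.31, and over all pairs of measured genes -0.002. These are correlations across all mice, whose libraries share their own depth and RNA quality. In the 20 B6 mice alone the median over the 78 pairs was 0.44, and after log library size was also removed it was 0.39.

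Among these genes 2 blocks stood out, chosen after the correlations were seen. The H4 genes Hist1h4c, Hist1h4d, Hist1h4h, Hist2h4 and Hist4h4, which lie on chromosomes 13, 3 and 6, had a median r of 0.69 among themselves (0.55 to 0.88), and the linker genes Hist1h1b, Hist1h1c, Hist1h1d and Hist1h1e one of 0.64 (0.58 to 0.81). Between the blocks the median was 0.28. The blocks are not the whole families, since Hist1h4i had r of 0.09 to 0.28 with the genes of the H4 block and the H3 gene Hist1h3e one of 0.48 to 0.62 with them. The 3 closest pairs were Hist1h4c with Hist1h4d (r = 0.88, rho = 0.86), Hist1h4c with Hist1h4h (r = 0.84, rho = 0.81) and Hist1h4d with Hist1h4h (r = 0.83, rho = 0.80). These genes share some of their 50-base stretches, and the part of shared reads in r was not tested. Hist2h4, with 99.0% unique stretches, shares such stretches with Hist1h4d alone, and Hist4h4 with no other histone gene. The least related pairs were Hist1h4h with Hist2h2be (r = -0.15), Hist1h1c with Hist1h4h (r = -0.04) and Hist1h2bc with Hist2h2be (r = -0.03).

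**Figure D4:**
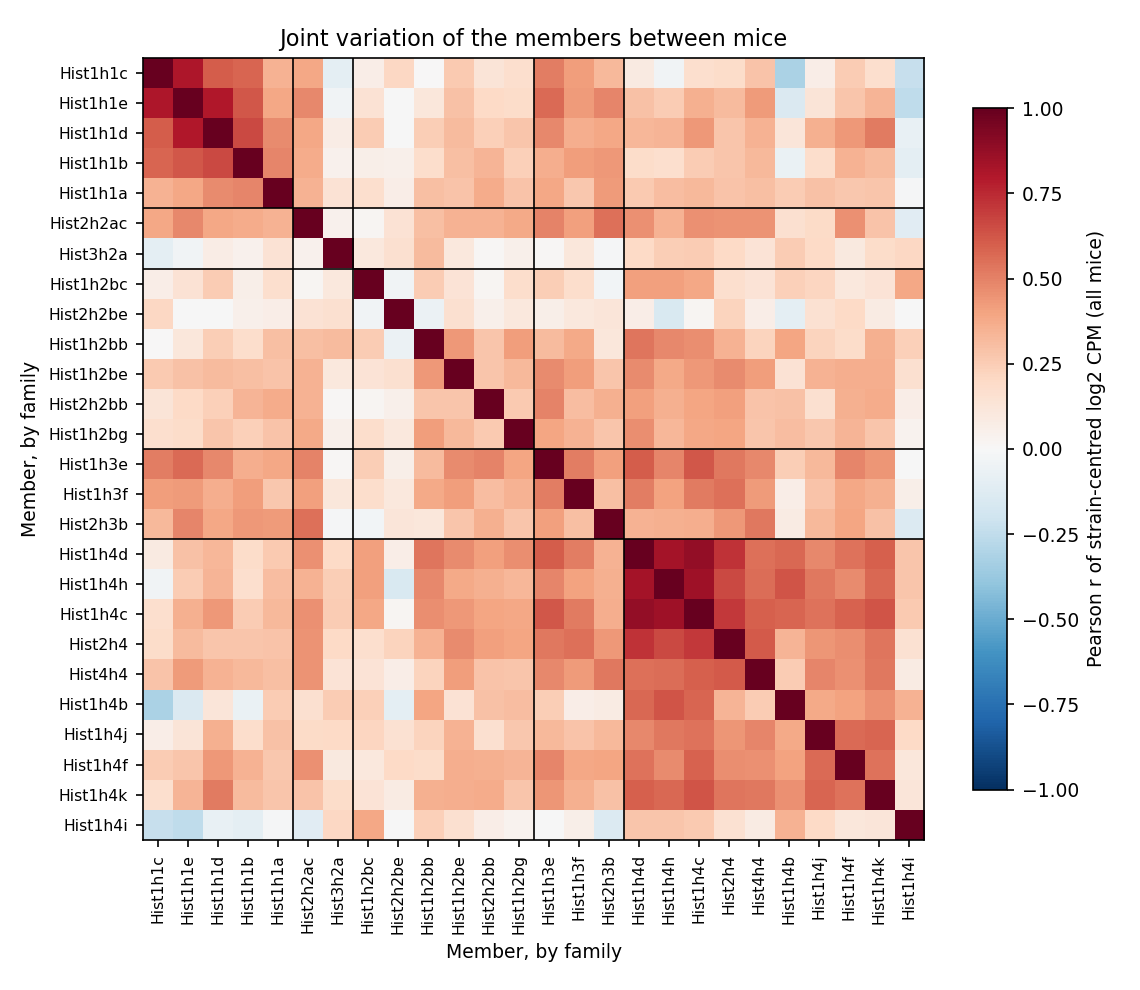
Pearson r of strain-centred log2 CPM between all 26 members over all mice, with lines between the families. Within H4, the 5 genes of the H4 block reach 0.55 to 0.88, and the 4 linker genes reach 0.58 to 0.81, with a median of 0.28 between both blocks.

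In 4 mice the linker genes Hist1h1b, Hist1h1c and Hist1h1e stood above all the rest. These were replicates 2 and 3 of (B6.A14 x B6.A4)F1, replicate 4 of B6 and replicate 6 of (B6.A3 x B6)F1, with 320, 266, 298 and 272 CPM of Hist1h1c, while the other 150 mice had 24.8 to 152.9 CPM with a median of 68.2. Hist1h1e was 152 to 197 CPM in the 4 mice against at most 106 in the others, and Hist1h1b 5.26 to 9.58 against at most 3.18. Hist1h1d was 17.6 to 33.5 CPM against a median of 7.57 and at most 19.1, with some overlap. The linker gene Hist1h1a was spread among the others, at 0.860 to 3.17 CPM against 0.406 to 2.79 with a median of 1.39. The H4 gene Hist1h4c did not stand apart there, with 14.6 to 22.7 CPM in the 4 mice and 8.76 to 33.6 in the others. Some other H4 genes were low in the 4 mice. Hist1h4b had 0.312 to 0.658 CPM against a median of 1.73 in the others, and Hist1h4i 0.120 to 0.860 against a median of 0.888. Hist1h4h had 9.87 to 19.6 CPM against 10.5 to 41.1. Other chromatin genes, chosen after their values were seen, were also high in these mice. The replacement linker histone gene H1f0 had 176.3 to 203 CPM against at most 141.3 in the others. The H3.3 gene H3f3b had 213 to 344 CPM against a median of 131.2 and at most 269.3. The chromatin protein gene Hmgb2 had 7.57 to 15.9 CPM against a median of 3.45 and at most 9.02, so H3f3b and Hmgb2 overlapped with the others. The 4 mice came from 3 strains, and replicate 3 of (B6.A14 x B6.A4)F1 is also the mouse whose library holds no counts of Y-linked genes although every mouse is labelled male. With the 4 mice left out, r between the mean of the linker genes and the mean of the H4 genes was 0.45, against 0.35 with them.

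**Figure D5:**
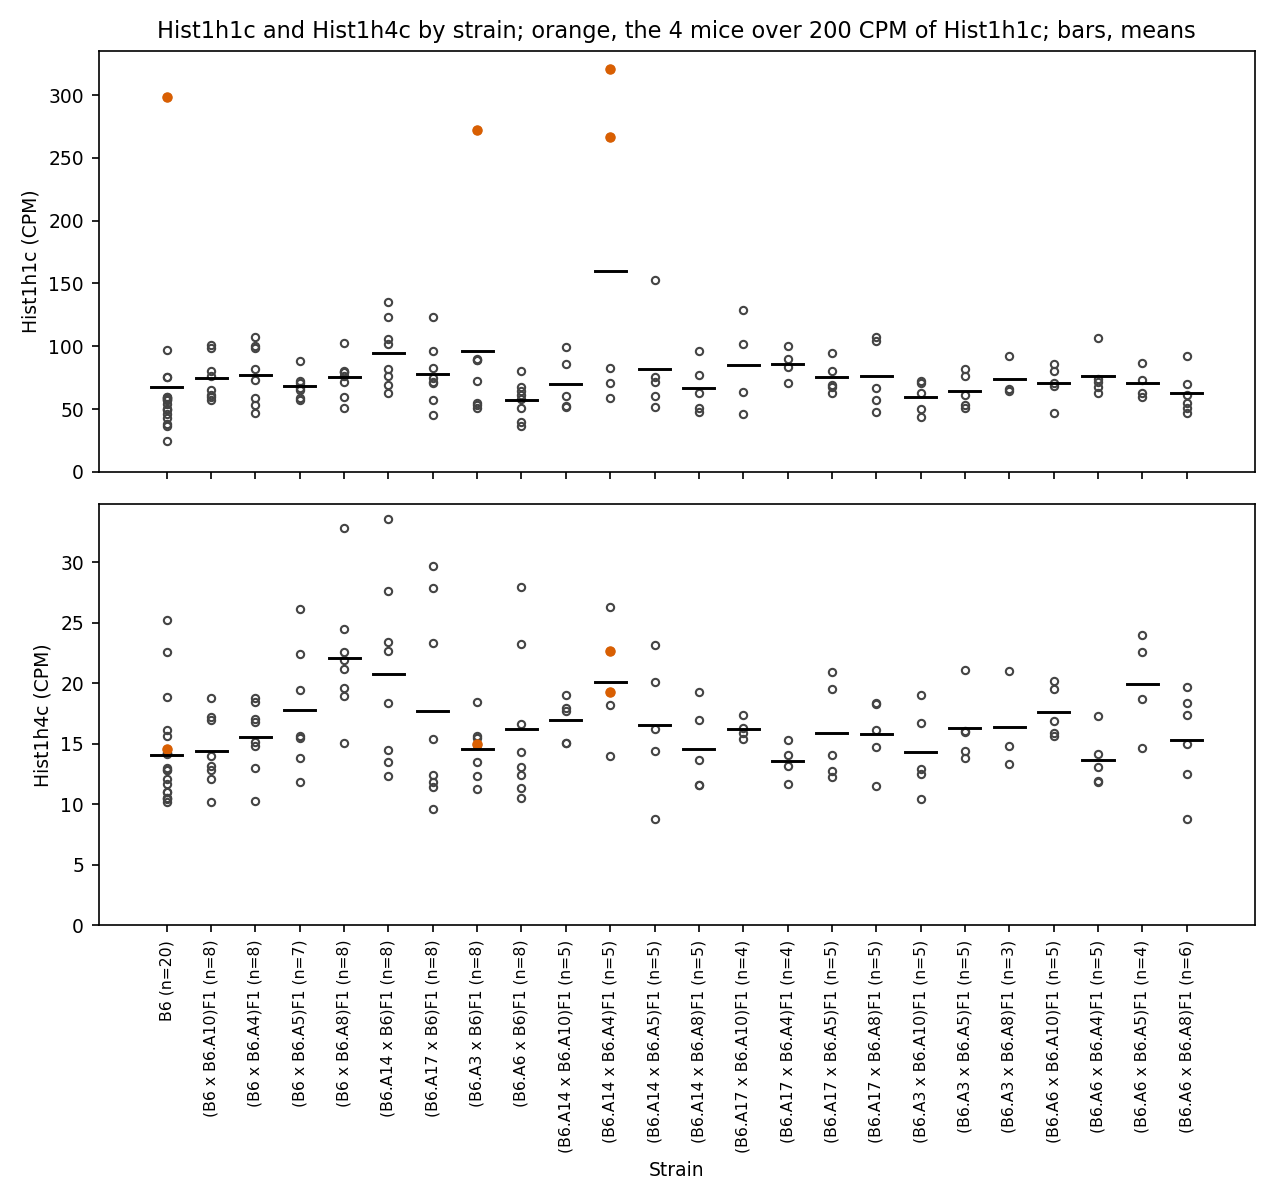
Hist1h1c (upper panel) and Hist1h4c (lower panel) in CPM for every mouse, by strain (linear axes from 0, bars are strain means), with the 4 mice above 200 CPM of Hist1h1c in orange. The orange mice lie at 266 to 320 CPM of Hist1h1c and within the range of the others for Hist1h4c.

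The levels were also set beside proliferation genes, since the class is transcribed in S phase. The mean of the 13 members had r = -0.005 (rho = 0.08) with the mean of 26 S phase genes. The linker block had r = 0.21 with that mean and the H4 block r = -0.06. For single genes, Hist1h1c was compared with 5 genes by a two-sided permutation test within strains, adjusted over the 5. Slbp, whose product binds the stem-loop, was negatively related (r = -0.42, permutation p = 4e-05, adjusted p = 0.0002, and rho = -0.32, permutation p = 0.00038, adjusted p = 0.0019), and r was -0.35 without the 2 mice farthest from the median. Mki67 (r = 0.07, rho = 0.06, permutation p = 0.513 and 0.469), Top2a (r = 0.17, rho = 0.10, permutation p = 0.0781 and 0.236), Pcna (r = -0.06, rho = 0.02, permutation p = 0.511 and 0.806) and H2afz (r = -0.03, rho = 0.01, permutation p = 0.737 and 0.877) had no relation that passed. Slbp was 10.7 to 12.4 CPM in the 4 mice with the highest Hist1h1c and 10.7 to 18.3 CPM with a median of 14.2 in the others.

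The 10 genes most like the mean of the 13 members were mainly short structured RNAs. They were Gm22442 (r = 0.69), a small Cajal body RNA, Rn7sk (0.64), the RNA of the 7SK particle that restrains transcription elongation, Rmrp (0.63), the RNA of RNase MRP, Scarna2 (0.63), the small nucleolar RNA Gm25117 (0.63), Scarna6 (0.60), Terc (0.60), the telomerase RNA, Gm24146 (0.60) and Gm22009 (0.59), with the chromatin remodeller gene Chd1 (-0.60) as the negatively related and protein-coding one. Of 61 small nucleolar RNA genes 60 were positively related to the members. The mean of 37 short structured RNA genes had r = 0.52 with the H4 block and 0.19 with the linker block, and its summed level ranged from 4747 to 21912 CPM over the mice. The linker block in turn had r = 0.48 with lymphocyte markers and 0.37 with endothelial markers, against 0.14 and -0.01 for the H4 block. Their part in the histone results was not tested. Histone mRNAs without a poly(A) tail and short structured RNAs are both kept by a total RNA library, and the log2 library size had r = -0.24 with the mean of the members.

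For 15 measured genes of histone transcription and mRNA processing, 20 of 120 main effect tests passed (16.7%, against 11.1% over all genes), with 3 higher and 17 lower. Of their 225 interaction tests 22 passed (9.78%, against 5.96% over all genes), with 17 higher and 5 lower. Cpsf3, the endonuclease that cleaves the histone pre-mRNA after the stem-loop, was lower in 4 main effects and most in A8 (-0.41 ± 0.06, SE, adjusted p = 8.09e-08 by edgeR). Upf1, a helicase that acts in histone mRNA decay, was lower in A6, A14 and A8 (-0.49 ± 0.10 in A8). Slbp and Hinfp, each with 3 calls, were lower in A14, A4 and A8, with log2 fold changes of -0.28, -0.22 and -0.34 for Slbp and of -0.29, -0.31 and -0.29 for Hinfp.

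Of the 9 measured replacement histone genes, 10 of 72 main effect tests passed (13.9%, against 11.1% over all genes), 7 higher and 3 lower. H2afz was higher in A6, A14, A4 and A8 (0.28, 0.38, 0.22 and 0.44), H3f3a was higher in A14 and A8 (0.12 and 0.15) and lower in 1 other main effect, and H2afy, encoding macroH2A, was lower in A14 and A8 (-0.19 and -0.24). Of the 14 histone chaperone genes, 11 of 112 tests passed (9.82%), 3 higher and 8 lower, with Nap1l4 lower in A14, A4 and A8 (-0.19, -0.12 and -0.17), Ssrp1 lower in A14 and A8 (-0.23 and -0.26) and Chaf1b lower in A8 (-0.52). Of the 26 S phase genes, 6 of 208 tests passed (2.88%), 2 higher and 4 lower, among them Rrm1, a subunit of ribonucleotide reductase, lower in A14 and A8 (-0.43 and -0.27), the proliferation marker Mki67 lower in A14 (-0.66) and thymidine kinase Tk1 higher in A6 (0.55). The interaction tests passed in 12 of 135 cases for replacement histone genes (8.89%, 5 higher and 7 lower), in 17 of 210 for chaperone genes (8.1%, 10 higher and 7 lower) and in 7 of 390 for S phase genes (1.79%, 4 higher and 3 lower). Over all genes 5.96% of the interaction tests passed. Over the 4 lists 47 main effect tests passed, against 16 with 10 surrogate variables. The means of the replacement histone genes and of the members had r = 0.57 within strains, and that of the processing genes had r = -0.37 with the members.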

How the data were processed

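Per the labels and the study's methods, caudate lobe RNA was sequenced from stranded total RNA libraries (single-end, 50 bp), aligned to mm10 with TopHat2 2.0.10, leftover reads were aligned to an individualized A/J genome, and HTSeq-count gave the deposited raw counts per gene, which are the unit used here. The flow cell is not given in the sources used here. In this work, genes were named with GENCODE vM21 (47 of the 13289 without a position). Counts were scaled by TMM and fitted with edgeR 4.0.16 (glmQLFit, legacy method, glmQLFTest) and 5 surrogate variables (sva 3.50.0) in R 4.3.3 over all mice, with 8 main effects and 15 interactions against B6. P-values were adjusted by Benjamini-Hochberg within each effect, separately for genes on a substituted chromosome and elsewhere (threshold 0.05), and over all genes for the joint test. SE was computed as the log2 fold change divided by the square root of F. Log2 CPM used a prior count of 2. Settings tried were 0 and 10 surrogate variables, DESeq2 1.42.0, its size factors, count filters, a threshold of 0.01, a prior count of 0.5, mice left out, and the short structured RNA level as a covariate.

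The mice are separate animals without replicate numbers in the labels, so p-values measure the spread between these mice. The replicate numbers used here were given in sample order within each strain. One label lacks F1 and was grouped with (B6.A3 x B6.A5)F1. The SE of a gene includes its counting error, which is larger at low counts. The members, gene lists and settings were chosen with earlier results of these data known. Genes named are all measured Hist2h, Hist3h and Hist4h members, the 6 members highest per kilobase, for the 4 main effects and 4 interactions with most calls the 3 called members that changed most, the 3 closest and 3 least related pairs, the 10 genes most like the members and, in each pathway list, the 3 genes with most called main effects. Others were chosen after their values were seen. On simulated data 96 of 100 genes changed by a log2 fold change of 1 were recovered for A8 and 96 of 100 changed by 1.5 for A14:A8, with 5 and 7 false calls among 13289 genes. The changed genes averaged at least 15 counts. The simulated counts held no other strain differences, no variation shared between genes and no outlying mice, so the false calls do not measure the error rate in the real data.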

Additional observations from a re-analysis of the deposited data

Results flagged for a closer look

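In 20 cases a histone gene responded to one A/J-derived chromosome differently in the presence of another, by the test of the interaction itself (edgeR quasi-likelihood, adjusted p under the threshold of 0.05). These are 5.13% of the 390 tests, against 5.96% over all genes, so the count is not above the background. All 20 values are log2 differences between the double CSS and the sum of its main effects. In A14:A8 they were -1.56 for Hist1h4i, -1.33 for Hist1h1c, -1.18 for Hist1h1d, -1.17 for Hist1h4c, -0.99 for Hist1h4h, -0.93 for Hist1h1e, -0.90 for Hist1h4d and -0.62 for Hist1h2bc. In A6:A8 they were -1.07 for Hist1h1d, -0.77 for Hist1h1e, -0.65 for Hist1h1c, -0.63 for Hist1h4h and -0.42 for Hist1h2bc. In A14:A10 they were -0.998 for Hist1h1c and -0.50 for Hist1h2bc, and in A17:A8 they were -0.90 for Hist1h1c and -0.45 for Hist1h2bc. The remaining values were -0.92 for Hist1h1c in A17:A4, -0.84 for Hist1h4c in A14:A5 and -0.42 for Hist1h2bc in A14:A4. None of the 20 passed with 10 surrogate variables, and 3 passed without the 4 mice with the highest Hist1h1c (Hist1h1c, Hist1h2bc and Hist1h4i in A14:A8).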

How the results depend on the processing

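The 32 main effects, 20 interactions and 9 joint calls among the members (11.1%, 5.96% and 51.4% of the tests over all genes) became 2, 0 and 3 with 10 surrogate variables (4.25%, 1.23% and 37.3% over all genes), 12, 8 and 4 with at least 15 counts in 75% of mice (11.7%, 5.73% and 55.1%), 9, 9 and 4 with at least 15 counts in every mouse (13.6%, 8.51% and 68.0%), where 19 and 10 members were tested and the surrogate variables were refitted, and 19, 9 and 5 at a threshold of 0.01 (share over all genes not given). In settings added after seeing the data they became 7, 4 and 4 without the 4 mice with the highest Hist1h1c (6.32%, 2.33% and 42.2% over all genes) and 14, 9 and 5 with the short structured RNA covariate (7.63%, 3.93% and 49.1%). Leaving out 1 of these mice gave 22, 13 and 5 (replicate 2 of (B6.A14 x B6.A4)F1), 25, 16 and 8 (its replicate 3), 23, 12 and 7 (replicate 4 of B6) and 18, 11 and 7 (replicate 6 of (B6.A3 x B6)F1), with 8.49% to 10.5%, 3.84% to 5.05% and 47.1% to 48.9% over all genes. With 0 surrogate variables they were 22, 24 and 8 (13.4%, 8.88% and 62.2% over all genes), and with the DESeq2 Wald test 34, 22 and 10 (11.8%, 6.3% and 55.6%). The 47 calls of the pathway lists became 16 with 10 surrogate variables. The median r of 0.40 ranged from 0.39 to 0.44. The sign changed, without a call, for Hist1h1d without the 4 mice (-0.011 in A8, 0.092 in A14:A8) and for Hist1h1e without them (-0.00099 in A8), with 0 surrogate variables (-0.028 in A8, -0.051 in A4), with 10 (-0.092 in A14, 0.067 in A6:A8, 0.098 in A14:A8) and with the 75% filter (-0.095 in A14, -0.0513 in A4, 0.015 in A6:A8, 0.076 in A14:A8). It also changed for Hist1h1c in A6:A8 with the 75% filter (0.087) and for Hist1h4h in A6:A8 with the filter in every mouse (0.17). The cause of these losses was not tested. Leaving out single mice of the double CSSs with 3 to 5 mice gave 19 to 21 interactions, 32 to 33 main effects and 9 joint calls. Surrogate variables and dispersions were kept from all mice, and the last 2 tests were run for replicate 1 of each of 14 crosses. Only the interaction of the cross that lost a mouse was retested, with the other calls carried over. (B6.A6 x B6.A8)F1, with 6 mice and 5 of the calls, was not included. The main effects rest on single CSS and B6 mice, none of which was left out here, so their count could hardly change. No paired analysis was possible because the labels give no replicate numbers. Depth limits the 13 members with an average log2 CPM under 1, which held 7 of the 32 main effects.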
